A study of Mus musculus with 267 samples.

Results

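The data described here are the acetylation of histone H3 at lysine 27 (H3K27ac) at binding sites of the transcription factor EGR2 in macrophages with and without a conditional Egr2 deletion, after 24 h of interleukin-4 (IL-4). The members were all 4677 regions of one deposited table, each centred on an EGR2 site, read in 4 chromatin immunoprecipitation sequencing (ChIP-seq) libraries of 24 h IL-4 (2 of each genotype) with the 4 basal libraries of the same table in the fit, out of 267 samples in 138 groups in the series. Both genotypes were mouse bone marrow-derived macrophages (BMDMs) grown in the growth factor M-CSF. Both carried Egr2 alleles flanked by loxP sites (Egr2flfl), and LyzMCreEgr2flfl macrophages also carried Cre under the LyzM promoter, which is active in myeloid cells. BMDMs were left untreated (basal) or given 20 ng/mL IL-4 for 24 h. Cre was present in the deleted group only, so the deletion and the presence of Cre cannot be told apart here. The labels give neither the age of the mice nor the inbred background of these alleles.

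EGR2 is a zinc-finger transcription factor of the early growth response family that binds GC-rich sites. IL-4 is the cytokine of alternative macrophage activation. It acts through phosphorylation of STAT6, which reaches its DNA sites within minutes, whereas factors that IL-4 induces, EGR2 among them, act later. H3K27ac is deposited by the acetyltransferases p300 and CBP and is used as a mark of active enhancers and promoters.

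The regions came from the EGR2 time course of C57BL/6J (C57) macrophages. Of 30675 EGR2 sites in that time course, 16296 had a peak at 24 h of IL-4 and none in basal cells, and 12678 of these lay in introns or between genes. The 4677 regions of the table comprised 2606 intronic and 2071 intergenic sites. A total of 3870 were called at 24 h only and 807 also at 1 h or 6 h, and 26 overlapped a peak of the basal list. Centres of 59 neighbouring pairs lay under 1000 bp apart, so that these pairs share tags. Every region was measured and tested, with no filter on low values. Outside the gene lists and the macrophage markers, each is named below by the protein-coding gene whose start is nearest. There, a gene is read at its region with the most H3K27ac within 50 kb, which may lie nearest another gene. Neither way of naming says that the gene is the target of the region.

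Before the values, the sequence of 8 regions is shown as examples. Of these, 4 had lower H3K27ac in LyzMCreEgr2flfl (Kif26b, Rwdd1, Zc3h12a, Sema4b) and 2 had higher H3K27ac (Maf, Bahcc1). In the other 2 (Egr2, Il1rl2), IL-4-induced H3K27ac differed little between genotypes. Each is 201 bases of mm10 (RefSeq assembly GRCm38.p6) around the region centre, on the + strand, 5′ to 3′. Capitals mark matches on either strand to the EGR core GTGGGNG or to the classical EGR site GCGTGGG, 2 patterns that overlap.
Kif26b (chr1:178980998-178981198): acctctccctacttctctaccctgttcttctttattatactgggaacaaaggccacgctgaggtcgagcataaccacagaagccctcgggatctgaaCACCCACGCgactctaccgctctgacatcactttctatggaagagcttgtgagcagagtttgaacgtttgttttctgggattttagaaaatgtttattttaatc
Rwdd1 (chr10:34016847-34017047): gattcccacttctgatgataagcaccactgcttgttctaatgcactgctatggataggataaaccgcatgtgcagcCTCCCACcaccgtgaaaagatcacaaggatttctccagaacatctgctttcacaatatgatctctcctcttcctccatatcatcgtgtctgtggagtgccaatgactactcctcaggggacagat
Zc3h12a (chr4:125177913-125178113): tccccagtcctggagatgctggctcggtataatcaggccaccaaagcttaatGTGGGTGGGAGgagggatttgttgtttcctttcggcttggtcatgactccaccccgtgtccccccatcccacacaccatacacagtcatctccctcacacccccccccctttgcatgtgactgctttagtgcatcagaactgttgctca
Sema4b (chr7:80202639-80202839): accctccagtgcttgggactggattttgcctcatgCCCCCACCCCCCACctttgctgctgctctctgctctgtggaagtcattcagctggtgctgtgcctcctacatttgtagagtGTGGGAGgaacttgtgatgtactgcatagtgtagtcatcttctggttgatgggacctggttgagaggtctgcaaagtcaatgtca
Maf (chr8:115536967-115537167): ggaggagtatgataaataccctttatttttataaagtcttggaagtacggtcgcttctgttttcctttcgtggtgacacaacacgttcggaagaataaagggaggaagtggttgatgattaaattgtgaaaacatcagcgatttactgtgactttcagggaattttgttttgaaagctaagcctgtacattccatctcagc
Bahcc1 (chr11:120237987-120238187): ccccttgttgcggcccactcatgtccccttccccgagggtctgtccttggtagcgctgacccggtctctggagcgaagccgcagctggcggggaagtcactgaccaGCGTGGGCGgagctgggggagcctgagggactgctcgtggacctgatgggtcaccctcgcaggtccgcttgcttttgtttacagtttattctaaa
Egr2 (chr10:67539116-67539316): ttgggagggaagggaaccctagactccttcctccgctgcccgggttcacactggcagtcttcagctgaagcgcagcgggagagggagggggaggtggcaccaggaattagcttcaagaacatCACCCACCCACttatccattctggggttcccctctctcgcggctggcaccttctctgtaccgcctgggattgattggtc
Il1rl2 (chr1:40322666-40322866): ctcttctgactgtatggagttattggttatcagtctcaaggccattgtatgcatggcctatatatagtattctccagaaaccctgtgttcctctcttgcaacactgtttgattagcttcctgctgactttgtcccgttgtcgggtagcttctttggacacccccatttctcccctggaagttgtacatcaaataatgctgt
Of the lower regions shown, the one nearest Kif26b held the classical site at its centre and the one nearest Sema4b held 3 core matches. The region at Egr2 held 2 core matches and the one at Il1rl2 held none. Of the higher regions shown, Maf held no match and Bahcc1 held 1 of each pattern. The 8 do not show how often a group holds a match. Of regions not shown, the one nearest Pzp, with the most negative difference, held none. The little-changed region at Abcg1 held 3 core matches. The core was in 52.2% of all lower regions against 49.0% of the whole table.

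Values were normalized tags, the tags in 1000 bp around the region centre per 10000000 tags of the library. The 8 libraries held 9624649 to 17840330 tags, so that 1 normalized tag stood for 0.962 to 1.78 reads. The share of a library's tags that fell in the 4677 regions was 3.41% and 3.69% in the Egr2flfl libraries at 24 h, 2.94% and 3.24% in the LyzMCreEgr2flfl libraries at 24 h, and 2.5% to 2.80% in the basal libraries of both genotypes. Because that share itself differed between genotypes, each H3K27ac comparison between genotypes was made under 2 scalings. Library totals keep a shift common to all regions, and median-ratio factors computed over the regions remove it. Every log2 difference is LyzMCreEgr2flfl minus Egr2flfl of log2(normalized tags + 1). Regions were tested with limma over all 8 libraries with Benjamini-Hochberg adjustment, and a region was called at an adjusted p below 0.05. The table does not check the deletion itself, since H3K27ac at Egr2 does not measure EGR2 and no EGR2 library of these genotypes was used here. Of 10 macrophage marker genes, 4 had a region within 50 kb. Those of Csf1r and Spi1 had mean tags of 839.1 and 619.8 over the 8 libraries, Adgre1 321.1 and Cebpa 26.7. The markers were not level between genotypes at 24 h. With library totals, Adgre1 was called higher in LyzMCreEgr2flfl (log2 difference 0.85, adjusted p by limma 0.0146) and Cebpa lower (-1.52, adjusted p by limma 0.00342), whereas Csf1r and Spi1 had 0.18 and 0.03 without passing. Each marker was read at its region with the most tags, and of the 2 regions nearest Spi1, 1 was called lower under both scalings. What part this had in the results was not tested. Among 22 marker genes of other blood and stromal cells, 5 had a region within 50 kb, and their counts stand with the gene lists below.

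With library totals, H3K27ac at 24 h of IL-4 was lower in LyzMCreEgr2flfl macrophages at most EGR2 sites of the table. The median region held 30.15 and 30.19 normalized tags in the Egr2flfl libraries and 16.62 and 16.83 in the LyzMCreEgr2flfl libraries, and the pairs did not overlap. In basal macrophages the medians were 17.04 and 16.29 in Egr2flfl and 12.03 and 12.89 in LyzMCreEgr2flfl. With library totals the median log2 difference at 24 h was -0.50, the quartiles were -1.20 and 0.01, and 74.3% of regions had a negative value. With median-ratio factors 51.1% had a negative value. In bulk chromatin, fewer cells carrying the mark and less of the mark per cell cannot be told apart.

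With library totals, limma called 1087 of the 4677 regions lower in LyzMCreEgr2flfl (23.2%) and 66 higher (1.41%). Under median-ratio scaling, which moved the median of all regions to -0.025, it called 498 lower (10.6%) and 538 higher (11.5%), so that the share of calls that were lower fell from 94.3% to 48.1%. All 498 lower regions of the median-ratio scaling were among the 1087, all 66 higher regions of the library totals were among the 538, and no region was called in opposite directions. The 498 lower and 66 higher regions called under both scalings are described as the lower and the higher regions below. They lay nearest 437 and 61 genes. In all of the 498 and all of the 66 the 24 h libraries of the genotypes were apart under both scalings. For a named region of these groups, libraries that do not overlap thus add nothing to its call. edgeR with TMM factors on the recovered reads called 478 of the 498 lower and all 66 of the 66 higher regions, and DESeq2 called 290 of the 498 lower. The count of 1087 was 449 without Egr2flfl replicate 1 of 24 h, 432 without Egr2flfl replicate 2, 641 without LyzMCreEgr2flfl replicate 1 and 895 without LyzMCreEgr2flfl replicate 2, and the count of 66 was between 12 and 31 without any 1 of the 4. At the threshold, the last lower region called lay nearest Mrtfb, with means of 20.8 and 5.86 tags (adjusted p by limma 0.0497), and the first not called lay nearest Brdt, with means of 29.8 and 14.5 (adjusted p by limma 0.05003).

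**Figure D1:**
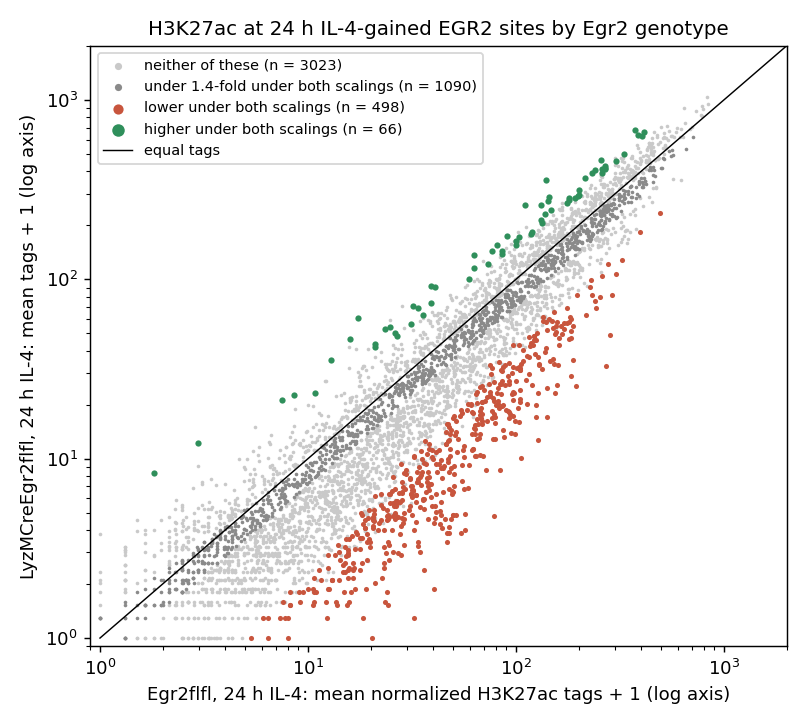
Mean normalized H3K27ac tags + 1 of each of the 4677 regions at 24 h of IL-4 in Egr2flfl (x axis) and LyzMCreEgr2flfl (y axis), 2 libraries each, both axes logarithmic; the line marks equal tags. The 498 regions lower under both scalings (red) lie below the line and the 66 higher regions (green) above it, while the 1090 regions under 1.4-fold under both scalings (dark grey) lie at or just below it.

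A second rule needed no test. It asked for means of normalized tags + 1 at least 2.5-fold apart, with at least 16 tags in the mean of either genotype. It found 604 regions lower (12.9%) and 8 higher (0.171%) with library totals, and 284 lower (6.07%) and 51 higher (1.09%) with median-ratio factors. The 2 libraries of each genotype did not overlap in any of the 604. For background, the libraries of the genotypes were apart in the lower direction in 2416 of all regions (51.7%) and in the higher direction in 449 (9.6%) with library totals, and in 1503 (32.1%) and 1457 (31.2%) with median-ratio factors.

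The lower regions had more H3K27ac at 24 h than in basal cells in Egr2flfl and about the same in LyzMCreEgr2flfl. Their median was 17.04 and 12.9 tags in the basal Egr2flfl libraries and 44.2 and 42.4 at 24 h, and was 7.02 and 7.29 in the basal and 7.27 and 8.13 in the 24 h LyzMCreEgr2flfl libraries. The median log2 difference of these regions at 24 h was -2.28, and -1.77 with median-ratio factors. These values chose the regions and are a description. In basal cells the same regions had a median log2 difference of -0.70 with library totals, and 458 of the 498 were below 0. Over all regions that basal median was -0.20, and 67.6% were below 0.

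The 12 lower regions with the most negative difference lay nearest genes of varied roles and held few tags in LyzMCreEgr2flfl. The region 50173 bp upstream of Zc3h12a, which encodes the RNase Regnase-1 that degrades inflammatory mRNAs, held 54.27 and 57.16 tags in Egr2flfl and 3.12 and 2.9 in LyzMCreEgr2flfl (log2 difference -3.82 ± 0.51 SE, adjusted p by limma 0.000197). An intronic region of Sema4b, a membrane semaphorin, held 40.2 and 30.19 against 1.04 and 1.74 tags (-3.92 ± 0.42, adjusted p 4.88e-05 by limma). The site in an intron of Thap4, nearest the start of the BCL2-family gene Bok, held 36.18 and 30.83 against 0 and 4.06 tags (-3.93 ± 0.67). In each of these the genotypes did not overlap, as in all 498 lower regions.

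The region 8073 bp upstream of Gfi1b, a transcriptional repressor of blood lineages, held 41.21 and 52.02 tags in Egr2flfl and 1.04 and 4.64 in LyzMCreEgr2flfl (log2 difference -3.80 ± 0.61). The intronic Rwdd1 region held the most tags of the 12, 91.46 and 64.23 in Egr2flfl against 4.16 and 3.48 (-4.01 ± 0.49). The region 17194 bp upstream of Tex37 held 54.27 and 52.67 against 1.04 and 4.64 tags (-4.01 ± 0.58). No library of one genotype reached the range of the other in these 3, and the Rwdd1 region was near its basal level in LyzMCreEgr2flfl, where basal libraries held 3.01 and 3.92 tags.

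Near 5 of the 12 genes the LyzMCreEgr2flfl libraries held 1 to 3 reads in all at 24 h, so their difference is given as a ratio of summed, depth-scaled reads with its 95% counting interval. The ratio was 81.0 (14.1 to 3241) at Pzp, a secreted protease inhibitor, from 77 reads against 1. It was 35.8 (11.9 to 176) at Spata21, from 102 reads against 3, and 29.5 (7.8 to 249) at Galnt9, an enzyme of O-glycosylation, from 56 reads against 2. A site in an intron of Smyd3 nearest Kif26b and a site in Dnah2 nearest Kdm6b, which encodes an H3K27 demethylase, had 55 against 1 and 41 against 1 reads. The region in Dact2, a modulator of Wnt and TGF-beta signalling, had 42 reads against 0, at least 14.7-fold lower with a floor of 3 reads over both libraries. Its Egr2flfl libraries differed, with 32.16 and 6.42 tags, and its call was lost with DESeq2 (adjusted p 0.0518) and with limma without Egr2flfl replicate 1 (0.0837). The other 11 kept theirs under every alternative run.

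Several lower regions lay side by side at the same gene. Inhba, which encodes a subunit of activins, was nearest to 9 regions, and 5 of them were among the 498, of which 2 overlap and share tags. These 5 and the Runx1 regions below were named after their values were seen. Of the 5, 4 lay between 163642 and 157708 bp upstream of the Inhba start. They held 41.1 to 158.8 tags in the Egr2flfl libraries and 8.13 to 40.5 in the LyzMCreEgr2flfl libraries, with log2 differences from -2.62 to -1.70. The fifth, 5011 bp upstream, held 37.19 and 34.68 against 5.19 and 5.8 tags (-2.51, adjusted p by limma 0.00200). Runx1, a transcription factor of blood cells, was nearest to 9 regions, of which 4 were lower, 2 of these again overlapping. Its region with the most H3K27ac, 38927 bp downstream of the start in an intron, was not called with library totals (291.5 and 327.6 against 326.3 and 404.5 tags, log2 difference 0.23, and 0.77 with median-ratio factors, where it was called higher).

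The 66 higher regions began with more H3K27ac. Their medians were 98.8 and 124.2 tags in the basal and 96.5 and 118.2 in the 24 h Egr2flfl libraries, and 133.9 and 158.1 in the basal and 182.9 and 177.9 in the 24 h LyzMCreEgr2flfl libraries. The median log2 difference at 24 h was 0.80, and 1.33 with median-ratio factors, again values that chose the regions. The 6 with the most positive difference had few tags. The intergenic region nearest Maf, a basic leucine zipper transcription factor, held 20.1 and 12.85 tags in Egr2flfl and 74.81 and 45.27 in LyzMCreEgr2flfl (log2 difference 1.79 ± 0.43, adjusted p by limma 0.00705). An intronic Bahcc1 region held 15.08 and 14.77 against 37.4 and 53.4 tags (1.52 ± 0.33). The regions nearest Kif21a, a kinesin (1.01 and 0.64 against 8.31 and 6.38), and Vcpip1, a deubiquitinase (2.01 and 1.93 against 12.47 and 9.87), held few tags in all 4 libraries. The regions nearest Enpp7 (2.01 and 10.92 against 16.62 and 23.8) and Gcg (4.02 and 19.91 against 34.29 and 34.82) had Egr2flfl libraries that lay far apart. Genotypes did not overlap in any of the 6, as in all 66 higher regions, and leaving out 1 of the 24 h libraries ended the call of 2 to 5 of the 6.

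**Figure D2:**
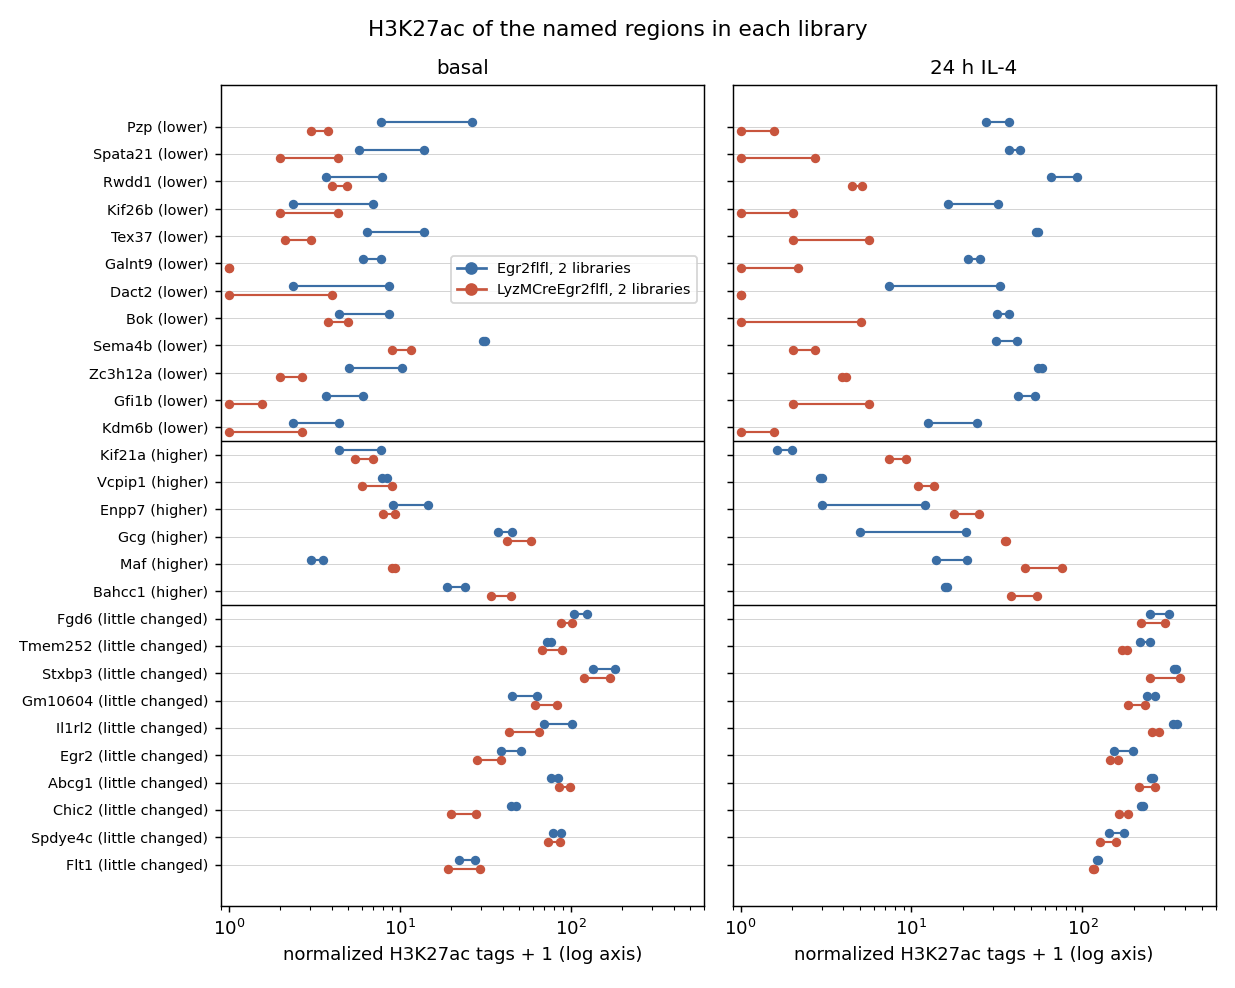
Normalized H3K27ac tags + 1 (logarithmic x axis) of the 12 lower, 6 higher and 10 little-changed regions named by nearest gene start, in basal cells (left) and at 24 h of IL-4 (right); each point is 1 library and a line joins the 2 libraries of a genotype. At 24 h the lower regions separate by genotype while the 10 little-changed regions sit together well above their basal levels.

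A further 1090 regions differed less than 1.4-fold between genotypes under both scalings. The EGR2-independent regions are those of them that C57 macrophages induced. In C57, H3K27ac was at least 2.5-fold higher at 24 h than in basal cells at 570 regions of the table, with at least 16 tags. Of the 570, 163 were lower in LyzMCreEgr2flfl under both scalings and 76 differed under 1.4-fold under both. In the 76, the median was 22.2 and 20.02 tags in basal Egr2flfl, 77.9 and 75.1 at 24 h, 17.05 and 17.7 in basal LyzMCreEgr2flfl and 60.3 and 63.6 at 24 h. Both genotypes thus held more tags at 24 h than in basal cells. The word independent stands for this rule only, since a difference under 1.4-fold does not show that EGR2 has no part in the region.

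The region at Egr2 itself was one of the 76. It lay 3741 bp downstream of the gene start (chr10:67538716-67539716), in an intron of the authors' annotation, and held 152.8 and 197.8 tags in Egr2flfl and 161.04 and 143.4 in LyzMCreEgr2flfl at 24 h. In basal cells it held 50.3 and 38.0 against 38.1 and 27.5. The genotypes overlapped at 24 h, with a log2 difference of -0.19 ± 0.25 (adjusted p by limma 0.629) and 0.34 with median-ratio factors.

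Of the EGR2-independent regions with the most H3K27ac in C57, the one 1844 bp upstream of Il1rl2, the interleukin-36 receptor, held 338.7 and 354.5 tags in Egr2flfl and 254.6 and 279.8 in LyzMCreEgr2flfl (log2 difference -0.38 ± 0.24). An intronic region of Abcg1, a cholesterol exporter, held 249.3 and 256.3 against 214.03 and 265.8 tags (-0.08 ± 0.21). The region 34138 bp upstream of Flt1, a VEGF receptor, held 122.6 and 121.4 against 114.3 and 115.5 (-0.09 ± 0.27). Libraries of the genotypes overlapped at Abcg1 and did not at Il1rl2 or Flt1, where LyzMCreEgr2flfl was the lower. Intronic regions of Fgd6, an exchange factor for Cdc42 (248.3 and 320.5 against 218.2 and 302.4), and of Fndc7, nearest the vesicle fusion gene Stxbp3 (349.8 and 341.04 against 370.9 and 248.4), overlapped too, as did the region nearest Spdye4c (141.7 and 173.4 against 125.7 and 156.7). Those nearest Tmem252 (216.1 and 247.3 against 180.8 and 170.1), Gm10604 (238.2 and 263.97 against 183.9 and 229.8) and Chic2 (226.1 and 218.4 against 162.1 and 183.4) did not overlap, again with LyzMCreEgr2flfl the lower. Some of these genes were also nearest to a region that was lower under both scalings, 1 of 5 regions for Chic2, 1 of 4 for Spdye4c and 1 of 3 for Stxbp3. Over the 9 regions other than that at Egr2, the log2 differences ran from -0.40 to -0.08 with library totals and from 0.14 to 0.45 with median-ratio factors, and no adjusted p by limma was below 0.195 or 0.0953. The scalings differ by a shift common to the table. A region under 1.4-fold under both thus tends to lie below 0 with library totals and above 0 with median-ratio factors. The signs, the small differences and the lack of calls therefore follow from the rule and are a description.

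H3K27ac of C57 macrophages came from other libraries and gave classes that the genotype comparison did not set. Of the 4677 regions, 3384 had a C57 counterpart within 500 bp. The 570 regions that IL-4 induced in C57 had a median of 56.8 and 61.3 tags in Egr2flfl and 28.05 and 27.3 in LyzMCreEgr2flfl at 24 h, a median log2 difference of -1.04, and 278 of them (48.8%) were called lower with library totals against 23.2% of all regions. With median-ratio factors 163 (28.6%) were lower against 10.6% of all. The 97 regions that IL-4 repressed in C57 held 57.3 and 64.9 against 57.1 and 70.8 tags, with a median log2 difference of 0.13, and of these 1 was called lower and 8 higher (8.25% against 1.41% of all regions). With median-ratio factors their median was 0.66, and 0 were called lower and 34 higher (35.1% against 11.5% of all). The 726 regions neutral in C57 (under 1.4-fold) had a median of -0.28, or 0.25 with median-ratio factors, and the 1027 between the classes -0.16. The 964 regions low in C57 and the 1293 with no counterpart had medians of -0.82 and -0.69 and few tags in every library. The sign of the medians of the neutral and intermediate classes thus depended on the scaling, and that of the induced class did not.

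The difference also ran with the H3K27ac a region had before IL-4. When the 3384 matched regions were divided into 4 equal bins by basal C57 H3K27ac, in the lowest bin (up to 4.86 tags) the median log2 difference was -1.10, in the next bins -0.73 and -0.34, and in the highest (from 89.6 tags) -0.02. Of the regions in these bins, 33.02%, 32.1%, 25.9% and 9.6% were called lower with library totals. With median-ratio factors the medians were -0.66, -0.24, 0.19 and 0.52, and the share called higher went from 0.7% to 38.9%. Low regions have few reads and the pseudocount shrinks their difference. By the strength of EGR2 binding in C57 at 24 h, the share called lower was 16.6% in the lowest of 4 bins, then 18.9%, 26.8% and 30.8% with library totals. With median-ratio factors both shares went up over these bins, from 7.25% to 15.4% called lower and from 9.13% to 14.9% called higher, and the medians were 0.05, -0.01, -0.10 and -0.05. H3K27ac differed between these bins too, with median tags of 18.09 and 17.98 in the 24 h Egr2flfl libraries of the lowest and 55.3 and 56.5 of the highest.

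**Figure D3:**
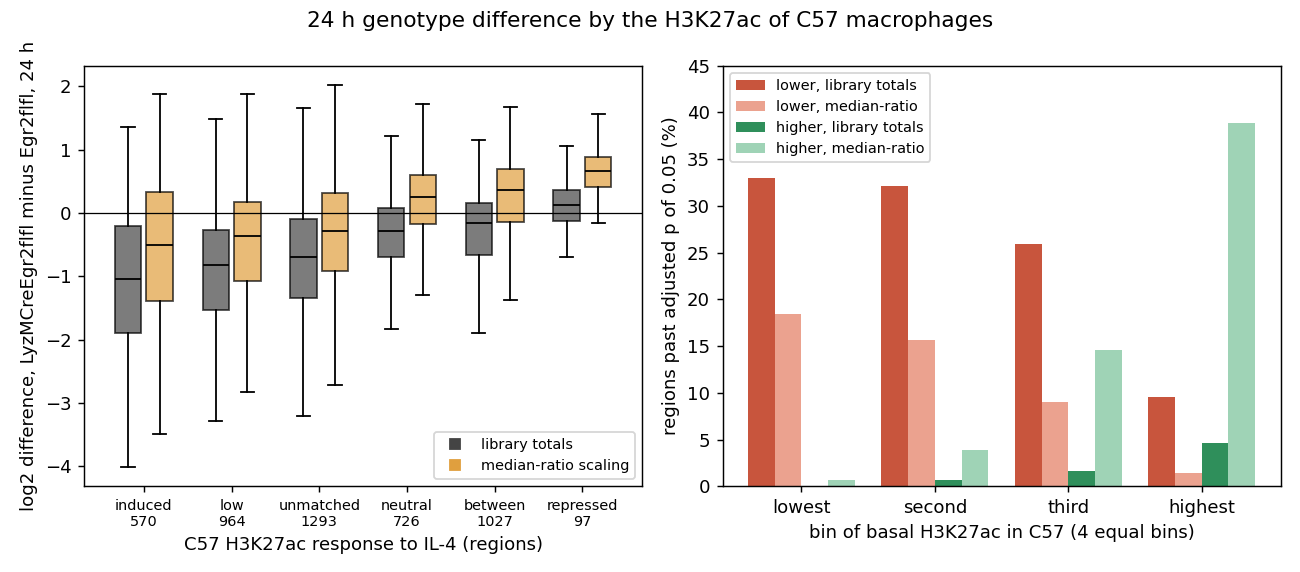
Left, log2 difference at 24 h of IL-4 (y axis) by the H3K27ac response of C57 macrophages (x axis, with regions per class) with library totals (grey) and median-ratio factors (orange); boxes show median and quartiles, whiskers the farthest value within 1.5 times the box length, and outliers are not drawn. Right, percent of regions called lower or higher in each of 4 equal bins of basal C57 H3K27ac, where lower calls with library totals go from 33.02% to 9.6%.

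In C57 macrophages the lower regions gained H3K27ac mainly by 6 h and the EGR2-independent regions in part by 1 h. The 376 lower regions with a C57 counterpart had medians of 6.64 tags in basal cells, 11.1 at 1 h, 29.4 at 6 h and 28.4 at 24 h. The 76 EGR2-independent regions had 11.9, 32.96, 58.6 and 55.5, and the 59 higher regions with a counterpart 141.8, 95.2, 110.4 and 91.7. The C57 values of basal cells and 24 h helped to choose the 76 but not the 376. The 163 lower regions that the same C57 rule calls induced had 6.28, 11.1, 32.8 and 39.7. EGR2 tags in C57 took a like order. At the lower regions their median was 11.1 in basal cells, 10.4 at 1 h, 21.95 at 6 h and 35.5 at 24 h, and at the independent regions 9.33, 17.95, 30.2 and 40.7. At the 163 induced lower regions it was 12.07, 12.48, 27.5 and 42.3. Medians over regions of these groups are a description with no test.

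**Figure D4:**
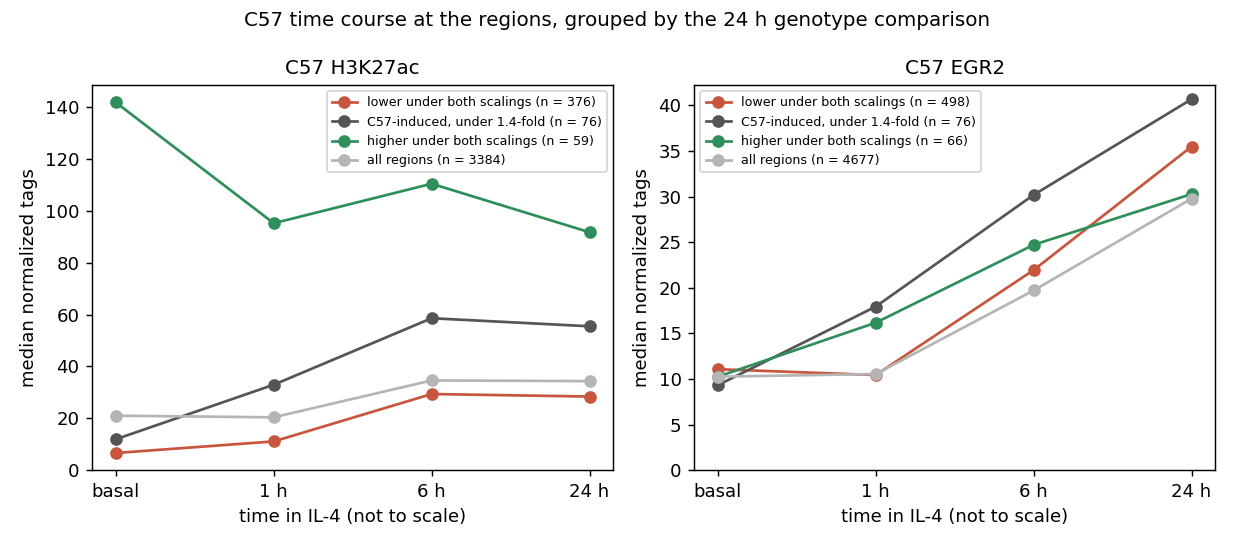
Median normalized tags of H3K27ac (left) and EGR2 (right) in C57 macrophages in basal cells and at 1, 6 and 24 h of IL-4 (x axis, not to scale), for the lower, higher and EGR2-independent regions and for all regions. H3K27ac of the lower regions was 11.1 at 1 h and 29.4 at 6 h, while the EGR2-independent regions had 32.96 at 1 h.

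The groups of regions differed in other factors and in sequence. In C57, a basal peak of STAT6, the factor that IL-4 activates, overlapped 28.3% of all regions, 6.22% of the lower and 74.2% of the higher regions. A basal peak of PU.1 (labelled PU1), the lineage factor of macrophages, overlapped 41.6%, 18.9% and 74.2%. At 24 h of IL-4, STAT6 peaks overlapped 96.1% of the EGR2-independent regions and 73.0% of the 163 lower regions induced in C57. They overlapped 56.7% of all regions and 82.8% of the 570 regions induced in C57, the class that holds both groups. The STAT6 pattern (TTC, any 4 bases, GAA, on either strand) was in 44 of the 76 EGR2-independent regions (57.9%) and in 25 of those 163 (15.3%). It was in 17.6% of all 4677 windows of 201 bases and in 36.7% of the 570. The EGR core was in 33 of the 76 (43.4%) and 86 of the 163 (52.8%), against 49.0% of all windows and 47.0% of the 570. It was in 260 of the 498 lower regions (52.2%) and 15 of the 66 higher regions (22.7%). The classical site GCGTGGG was in 5.28% of all windows and 5.22% of the lower regions. A match is a description of these letters and does not show a bound site.

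Regions with the EGR core had a median log2 difference of -0.67 and those without -0.36 with library totals. With median-ratio factors the medians were -0.22 and 0.14, so the sign of the regions without it depended on the scaling. The core was itself more frequent where basal C57 H3K27ac was low (57.3% of the lowest and 29.1% of the highest bin). Within bins the medians with and without it were -1.16 and -1.01, -0.83 and -0.67, -0.45 and -0.28, and -0.06 and 0.01 with library totals. With median-ratio factors they were -0.71 and -0.52, -0.32 and -0.18, 0.07 and 0.24, and 0.48 and 0.54. Patterns of AP-1 (TGANTCA) and C/EBP (TTGCNNAA) were in 21.96% and 16.6% of all windows and in 21.1% and 18.3% of the lower regions.

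Other ChIP-seq targets of the same genotypes were read at the same regions at 24 h. Their tags were scaled by library totals only, so a shift common to all regions was not removed. Libraries of H3K4me2, a mark of enhancers active or poised, were apart with LyzMCreEgr2flfl lower in 338 of the 498 lower regions (67.9%) against 35.1% of all regions. For PU1 this held for 383 (76.9%) against 44.6%, for STAT6 for 356 (71.5%) against 51.0%, for CEBPb for 412 (82.7%) against 63.2% and for PPARg for 229 (46.0%) against 40.1%. Among the EGR2-independent regions, all induced in C57, it held for 21.1% for H3K4me2, 34.2% for PU1, 64.5% for STAT6 and 65.8% for CEBPb. Among the 163 lower regions induced in C57, the shares in the same order were 74.2%, 85.9%, 87.1% and 86.5%. For PPARg it held for 41 of the 76 EGR2-independent regions (53.9%) and for 52.1% of the 163, so that these shares were close. With library totals, factor tags were thus lower over most of the table for STAT6 and CEBPb, and 1 of the PPARg libraries of LyzMCreEgr2flfl had a median of 0 tags. Among the higher regions, PU1 was apart with LyzMCreEgr2flfl higher in 29 of 66 (43.9%) against 10.5% of all, and H3K4me2 in 15 (22.7%) against 9.54%. For CEBPb this held for 4 of the 66 (against 1.82% of all), for STAT6 for 1 (against 2.07%) and for PPARg for 1 (against 1.6%). RNA polymerase II, with 1 library a group and no replicate check, had a median of 13.6 tags in Egr2flfl and 3.99 in LyzMCreEgr2flfl at the lower regions, and 11.9 and 7.99 over all regions.

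In basal macrophages limma called 9 regions lower (0.192%) and 0 higher with library totals, and 1 lower (0.0214%) with median-ratio factors. At an unadjusted p below 0.05 there were 574, and edgeR and DESeq2 each called 1. The count of 9 was 0 without basal Egr2flfl replicate 1 and 40 without basal Egr2flfl replicate 2, 5 and 21 without the basal LyzMCreEgr2flfl replicates 1 and 2, and 1 without either 24 h Egr2flfl library. Of the 9, 7 were also among the 498 lower regions at 24 h. Named after their values were seen, the intergenic region 29733 bp downstream of the Myl12b start held 29.82 and 19.68 against 3.01 and 4.48 tags in basal cells and 86.44 and 79.64 against 7.27 and 8.13 at 24 h. The 2 others behaved differently. At Msx3 the basal libraries held 18.75 and 12.9 against 4.01 and 6.17 tags and the 24 h libraries 210.06 and 229.3 against 290.9 and 304.1, and at Gpr15 18.75 and 19.68 against 3.01 and 5.04 and then 55.3 and 66.2 against 58.2 and 48.2. At 24 h the Msx3 region was called higher with median-ratio factors (log2 difference 0.97, adjusted p by limma 0.019) and was not called with library totals.

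Whether the difference between genotypes was itself larger at 24 h than in basal cells was tested by the interaction of genotype and IL-4. With limma no region passed (0.0%), with 615 at an unadjusted p below 0.05. edgeR called 0 and DESeq2 2. The median of the interaction was -0.27 with library totals and 0.04 with median-ratio factors. Without 24 h LyzMCreEgr2flfl replicate 2 there were 16 calls, without basal LyzMCreEgr2flfl replicate 2 there were 8 and without basal Egr2flfl replicate 2 there was 1. A pseudocount of 5 gave 60. A larger number of calls at 24 h than in basal cells therefore does not show that a given region differed more at 24 h. The Rwdd1 region, with 6.82 and 2.72 against 3.01 and 3.92 tags in basal cells, had the interaction value -3.73 (adjusted p by limma 0.0839). The Msx3 region, named after its values were seen, had the opposite sign, 1.90, at the same adjusted p by limma (0.0839). With median-ratio factors the adjusted p by limma was 0.146 at Rwdd1 and 0.0633 at Msx3.

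Genes of macrophage biology were read through the region with the most H3K27ac within 50 kb of each gene start, in 11 lists with 5 to 27 regions. Each list is given beside the whole table, with a median of -0.50, 23.2% lower and 1.41% higher. This choice favours regions of high H3K27ac, for which the whole table is not a matched background. In the highest bin of basal C57 H3K27ac the median was -0.02, with 9.6% called lower. With median-ratio factors that bin had a median of 0.52 and 38.9% called higher. What part this had in the list values was not tested. In the list of phagocytic and scavenger receptors 3 of 10 regions were lower and 0 higher (median -0.40), and with median-ratio factors 3 were lower and 3 higher (median 0.13). The intronic region of Itgb2, the integrin beta chain of leukocytes, held 139.7 and 140.01 tags in Egr2flfl and 11.43 and 20.89 in LyzMCreEgr2flfl (log2 difference -3.09 ± 0.31, adjusted p by limma 4.73e-05). That of Itgax, which encodes CD11c, held 96.49 and 86.71 against 21.82 and 12.77 (-2.38 ± 0.37), and the one within 50 kb of Itgb3 249.3 and 269.1 against 111.2 and 94.6 (-1.33 ± 0.22). All 3 were lower under both scalings and the genotypes did not overlap. Fcgr3, an Fc receptor, had a value of -0.82 that did not pass.

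Among genes of alternative activation, 7 of 27 regions were lower and 1 was higher with library totals (median -0.19), and 2 lower and 5 higher with median-ratio factors (median 0.34). The region shared by Chil3 and Chil4, which encode chitinase-like proteins, held 13.07 and 10.92 tags in Egr2flfl and 1.04 and 1.16 in LyzMCreEgr2flfl (-2.63 ± 0.57, adjusted p by limma 0.00396). Itgax was again among the lower, and Socs2, a suppressor of cytokine signalling, held 35.18 and 30.83 against 10.39 and 6.38 tags (-1.89 ± 0.55) and lost its call with median-ratio factors. The higher region was at Pdcd1lg2, which encodes the checkpoint ligand PD-L2, with 366.9 and 439.95 against 638.98 and 612.9 tags (0.64 ± 0.19, adjusted p by limma 0.0212). It and Arg1 were named after their values were seen. At Arg1, the arginase gene, the libraries held 347.8 and 369.3 against 421.8 and 372.6 (0.15 ± 0.20). The list of IL-4 receptor, JAK-STAT and feedback genes had 1 lower of 13 (Socs2), 0 higher and a median of 0.02, and 0 lower and 2 higher with median-ratio factors (median 0.56). Named after their values were seen, the 2 higher were Il4ra, a chain of the IL-4 receptor, and Stat6 (log2 differences of 0.06 and 0.02 with library totals, and of 0.60 and 0.56 with median-ratio factors, adjusted p by limma 0.0446 and 0.0346). In this list Ptpn2 and Pias1, negative regulators of cytokine signalling, had -0.50 and 0.57 without passing. The direction of these 2 depended on the settings.

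Of 19 regions of adhesion, migration and matrix genes, 5 were lower and 0 higher (median -0.63), and 3 lower and 0 higher with median-ratio factors (median -0.10). Spp1, osteopontin, held 36.18 and 28.26 against 4.16 and 6.38 tags (-2.42 ± 0.60), Vcl, vinculin, 70.35 and 64.23 against 12.47 and 19.15 (-2.05 ± 0.38), and Mmp2, a gelatinase, 45.23 and 49.45 against 10.39 and 15.09 (-1.83 ± 0.34). The genotypes did not overlap in the 3, all lower under both scalings. Among 14 regions of nuclear receptor and lipid genes, 3 were lower and 0 higher (median -0.55), and 3 lower and 1 higher with median-ratio factors (median -0.02). These were near Scd1 and Scd2, stearoyl-CoA desaturases (-2.08 ± 0.32 and -1.64 ± 0.36), and Abca1, a cholesterol exporter (-2.04 ± 0.36). Of macrophage lineage and AP-1 factors, 5 of 19 were lower and 0 higher (median -0.13), and 3 lower and 5 higher with median-ratio factors (median 0.36). Smad7, an inhibitor of TGF-beta signalling, was one of these, at 7.04 and 7.06 against 0 and 0.58 tags. They included Tfeb, a regulator of lysosomal genes (-1.78 ± 0.27), and the C/EBP genes Cebpb and Cebpa (-1.60 ± 0.40 and -1.52 ± 0.32), of which Cebpb was not called with median-ratio factors. The region read for Cebpb lay nearest the start of Tmem189.

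Among 16 regions of cytokines and chemokines 1 was lower and 0 higher (median 0.15), and 1 lower and 7 higher with median-ratio factors (median 0.69). It lay upstream of Csf1, the gene of M-CSF, with 49.25 and 61.66 tags in Egr2flfl and 10.39 and 8.13 in LyzMCreEgr2flfl (-2.46 ± 0.39, adjusted p by limma 0.000457). Il1b, the gene of interleukin-1 beta, had 4.02 and 5.14 against 17.66 and 10.45 tags (1.4 ± 0.52), called higher only with median-ratio factors. Of 13 regions of cytokine and chemokine receptors 3 were lower and 0 higher (median -0.38), and 1 lower and 5 higher with median-ratio factors (median 0.16). They included Il6ra, an interleukin-6 receptor chain, at 37.19 and 32.76 against 5.19 and 11.61 tags (-2.02 ± 0.45). The list of inflammatory and Toll-like receptor genes had 0 of 10 called by limma with library totals (3 at an unadjusted p below 0.05) and 5 higher with median-ratio factors, 5 with edgeR and 4 with DESeq2. That of other blood and stromal cells had 0 of 5 (2 at an unadjusted p below 0.05) and 2 higher with each of the others. Of the lists' named calls, those of Itgb2, Itgax, Itgb3, Csf1, Vcl, Mmp2, Tfeb, Scd1, Abca1 and Egr1 were kept without any 1 library and with DESeq2. Those of Spp1, Chil3, Il6ra, Scd2, Smad7, Cebpb and Socs2 were lost without Egr2flfl replicate 1 (limma adjusted p 0.0509 to 0.145), and those of Spp1, Smad7, Cebpb, Cebpa and Socs2 without Egr2flfl replicate 2 (0.0623 to 0.106). A list value stands for 1 region and not for a whole locus. Of the regions nearest Itgb3, 1 of 4 was lower under both scalings. It was 1 of 2 for Abca1, Vcl and Tfeb, 2 of 4 for Csf1 and 2 of 2 for Smad7. Itgb2, Itgax, Spp1, Chil3, Il6ra, Scd2, Cebpa and Egr1 were each nearest to 1 region, which was lower. Of the EGR family and its NAB corepressors, 1 of 5 regions was lower and 0 higher (median -0.50), and 1 lower and 1 higher with median-ratio factors (median 0.04). The lower region was that of Egr1, with 230.2 and 224.2 against 98.7 and 81.3 tags (-1.33 ± 0.22, adjusted p by limma 0.000754), whereas Egr3, named after its value was seen, held 167.9 and 169.6 against 145.5 and 190.95 (-0.02 ± 0.20) and was called higher with median-ratio factors (0.52 ± 0.17, adjusted p by limma 0.0469). The most negative difference of this list, -1.47, was at another region, which was not called.

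**Figure D5:**
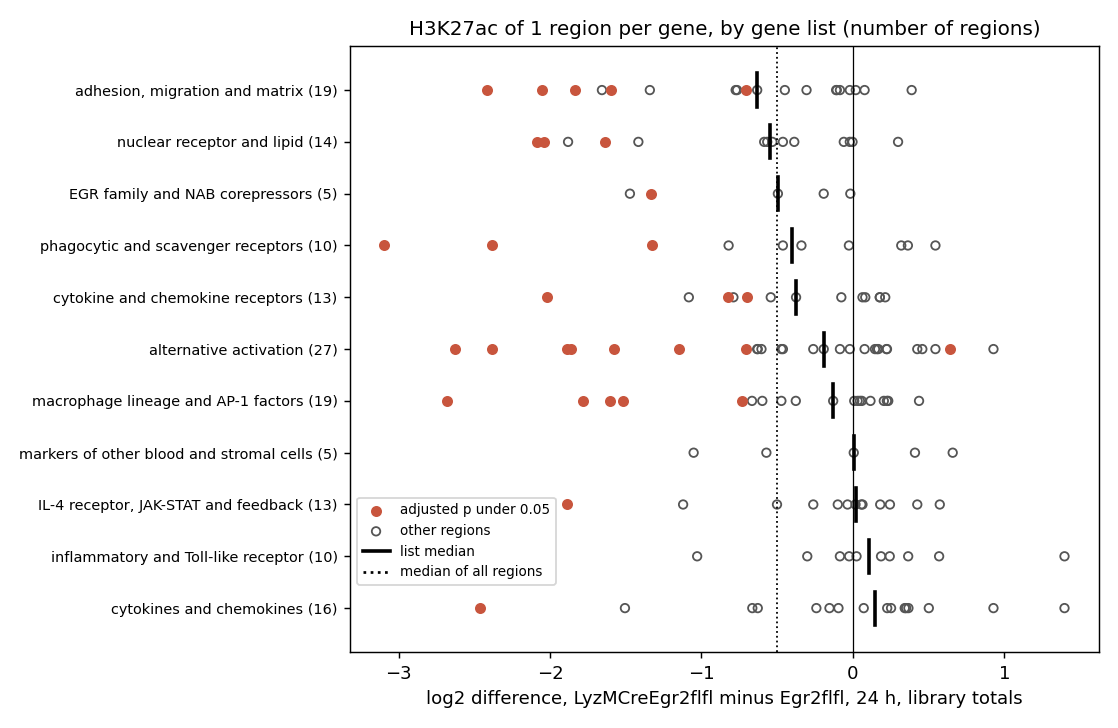
Log2 difference at 24 h with library totals (x axis) of 1 region per gene in 11 gene lists (y axis, number of regions in parentheses); filled points had an adjusted p by limma under 0.05, bars mark list medians and the dotted line the median of all regions at -0.50. Itgb2, at -3.09 in the list of phagocytic and scavenger receptors, is the lowest point.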

How the data were processed

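H3K27ac ChIP-seq of 8 libraries was used, 2 each of Egr2flfl and LyzMCreEgr2flfl BMDMs, basal or after 24 h of IL-4, grouped by the labels. The submitters' processing notes name Bowtie2, HOMER and the mm10 build. The deposited signal values are tags scaled by the authors to 10000000 per library, with replicates kept apart, in 1000 bp around region centres for histone marks and 300 bp for factors. Of the deposited score of each C57 peak no use was made, only of peak positions. In the tables of these genotypes 4 value columns matched no sample's labels and were left out.

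All 4677 regions were tested, two-sided, on the log2(normalized tags + 1) scale with a linear model of group means over the 8 libraries in limma 3.58.1 (under R 4.3.3, with moderated variances that follow an intensity trend), with Benjamini-Hochberg adjustment and a threshold of 0.05. The pseudocount makes differences of low regions too small. Libraries are labelled as biological replicates. Within groups they differed by more than sampling noise (chi-square over degrees of freedom 2.54 to 4.13) and none held identical values. Multiplying tags by library totals gave whole reads (within 0.1 read) for 100% of 37416 values, and these reads went into edgeR 4.0.16 and DESeq2 1.42.0 as alternatives. Ratio intervals and floors cover counting error only. Other alternatives were the scaling, the pseudocount, filters on tags, 24 h libraries alone, a replicate block and leaving out each library. The scripts were tested on simulated data.

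C57 regions were matched by centres within 500 bp and peaks by overlap. Gene starts were those of protein-coding genes in GENCODE vM21, and sequence was RefSeq GRCm38.p6. Named regions were the 12 most negative and 6 most positive log2 differences among regions called under both scalings, at most 1 per gene, the 10 EGR2-independent regions with the most C57 H3K27ac, the region at Egr2, and in each gene list the members with the largest differences. The regions, lists and tests were chosen with earlier results of these data known. Python 3.11.15, pandas 2.3.3, numpy 2.4.6, scipy 1.17.1 and matplotlib 3.10.9 were used.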

Additional observations from a re-analysis of the deposited data

How the results depend on the processing

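With 2 libraries a group, single libraries moved many counts, and at 0.962 to 1.78 reads per tag regions of few tags were poorly resolved. The scaling set the balance of calls at 24 h: 1087 lower and 66 higher became 498 and 538 with median-ratio factors, and the cause of the shift common to the table was not tested. Scaling over the 726 regions neutral in C57, edgeR with library totals and median-ratio factors combined with the replicate block were chosen after seeing the data.

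At 24 h the lower regions numbered 585 with edgeR, 290 with DESeq2 and 667 with the neutral regions as reference, and the higher regions 543, 430 and 288. edgeR with library totals gave 1169 and 79. DESeq2 called 720 in all. Without 1 library there were 461 to 1204 calls, 432 to 1138 of them lower and 12 to 66 higher. The fold rule found 335 regions with median-ratio factors (284 lower, 51 higher), 988 with no filter (972 lower, 16 higher) and 378 with a filter of 32 tags (372 lower). Its 8 higher regions became 3 with a pseudocount of 5, 26 at 2-fold and 10 to 19 without 1 library. The median log2 difference of -0.50 was -0.025 with median-ratio factors, -0.36 with a pseudocount of 5, -0.40 with a filter of 16 tags, -0.24 with the neutral regions as reference and -0.55 to -0.47 without 1 library.

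In basal cells the 9 calls became 1 with median-ratio factors, edgeR, DESeq2 or the neutral regions as reference, 4 with a pseudocount of 5 and 0 to 40 without 1 library. The interaction had 0 calls by limma, 60 with a pseudocount of 5, 2 with DESeq2, 0 with edgeR and 0 to 16 without 1 library. Same-numbered libraries deviated together only weakly (correlations of 0.0942 to 0.200 over 6 pairs of groups), and the labels do not say that a number marks a shared animal or day. With the replicate block there were 1333 lower and 169 higher calls at 24 h, 85 calls in basal cells and 72 in the interaction (62 lower, 10 higher). With the replicate block and median-ratio factors these were 651, 825, 69 and 101 (22 lower, 79 higher).

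The log2 difference changed sign in some setting at 13 of 66 named regions, none of them called. All 10 EGR2-independent regions did so with median-ratio factors, edgeR and DESeq2, and 7 of them with the neutral regions as reference. The rule that chose these 10, under 1.4-fold under both scalings, leads to this change of sign, so it is no check of them. The other 3 regions that changed sign were in the gene lists. The region near Lrp1 that was read for Nab2 had 0.041 with median-ratio factors, also with the replicate block, and 0.023 with DESeq2. That of Ptpn2 had 0.029 in the first 2 settings and 0.020 with DESeq2. That of Pias1 ranged from -0.27 to 1.42 without 1 library.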
